A study of Mus musculus with 12 samples.

Results

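The 47 genes described here are antiviral effectors of the type I interferon response, taken from a list of genes by their known function. They were looked up by mouse gene symbol among the 48709 genes counted in each of 12 RNA-seq libraries, and all 47 were found. Type I interferons are secreted by cells that sense foreign or misplaced nucleic acid, and they act through a receptor, the kinases Jak1 and Tyk2 and the factor ISGF3, a complex that includes Stat2 and Irf9. ISGF3 binds short repeats of GAAA in the promoters of its target genes, and the products of these genes sense viral RNA, block its translation, degrade it or stop viruses from entering and leaving cells. In brain tissue neurons, astrocytes and microglia all can mount this response, and many of its genes are transcribed at a low level without infection.

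The libraries came from hippocampal cells of CD1 mouse embryos at embryonic day 17, grown as primary cultures. At day 10 in vitro (DIV10) 6 cultures were given lipid nanoparticles loaded with a miR-148a-3p mimic, and 6 were given nanoparticles with a negative control oligonucleotide. Per the methods of the study both groups also received ApoE4 protein, and the hippocampi of several embryos were pooled before plating. Cells were harvested after 48 h, at DIV12. The control oligonucleotide is called a siRNA in the series description and a scrambled RNA in the methods, and the culture preparation behind each replicate is not stated, so p-values measure the spread between these samples, which may be technical in part. No untreated cultures or cultures without nanoparticles were analysed here, and all values are differences between both oligonucleotides.

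The sequences of both oligonucleotides, from the reagent list of the study, are shown because a microRNA recognises its transcripts through bases 2 to 8, the seed, given here in capitals.
miR-148a-3p mimic: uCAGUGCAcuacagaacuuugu
negative control: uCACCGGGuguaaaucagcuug
The mimic has the sequence of the mature mouse miR-148a-3p in RefSeq (chr6:51269829-51269850, minus strand, GRCm38.p6). That the listed control sequence was the one given to these 6 cultures is assumed.

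Library totals ran from 20018234 to 37149112 counts in control and from 28316456 to 33808253 in mimic, and neither the totals nor the number of detected genes differed beyond their spread (exact permutation p = 0.515 and 0.816, two-sided; 0.816 for both after adjustment over both measures). A level below is the count of a gene in CPM, that is, scaled to library totals adjusted by the TMM method, which makes libraries of different depth comparable. The labels call the cells neurons, and the 10 neuron markers summed to 7424 to 8164 CPM in control and 7350 to 7702 CPM in mimic. Astrocyte markers were also abundant, at 4895 to 5378 CPM in control and 5718 to 6180 CPM in mimic. The 12 microglia and macrophage markers together reached only 24.5 to 28.5 CPM in control and 23.3 to 43.3 CPM in mimic.

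Of the 47 genes, 42 had enough reads to be tested, a minimum of 5 counts in 6 or more of the 12 libraries, and 36 of the 42 reached 5 counts in every library, while 5 reached it in fewer than 6 mimic libraries. Zbp1, Oas1a, Oas3, Oasl1 and Sp100 stayed under this limit, with means of 4.83, 2.25, 1.75, 3.25 and 4.42 counts. Of the 42 genes tested, 25 were lower in mimic (59.5%), 2 were higher and 15 did not pass the threshold, an edgeR adjusted p under 0.05 over all 18847 genes tested. Over all genes 22.2% were called, 10.7% as lower and 11.5% as higher. In 11 of the 42 genes all 6 mimic libraries lay below all 6 control libraries, which held for 5.83% of all genes tested, and in 1 they lay above, against 7.43% of all genes. The median log2 fold change of the 42 was -0.52, against -0.012 over all genes tested, and 36 of the 42 values were negative. The range ran from -1.90 for Ifit3b to 0.88 for Rsad2.

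**Figure D1:**
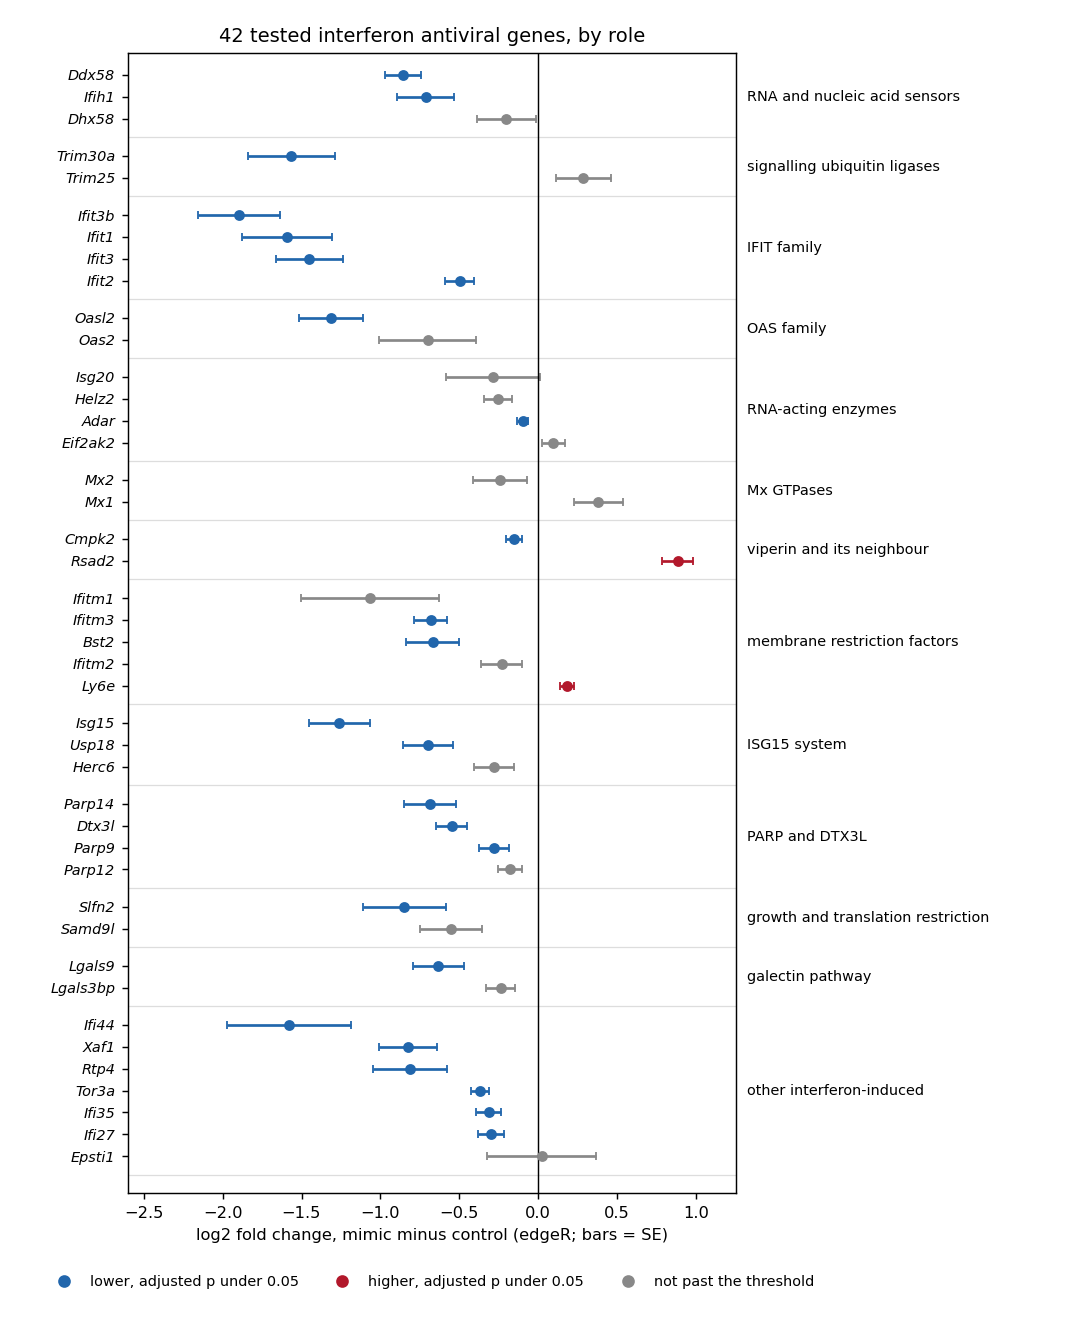
Log2 fold change of mimic minus control on the x axis for the 42 tested genes, grouped by role, with the standard error as bars; blue marks genes called lower, red genes called higher and grey genes not called. Values run from -1.90 for Ifit3b to 0.88 for Rsad2, and Rsad2 and Ly6e are the only genes in red.

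Taken as a sum, the 47 genes made up 390.2 to 451 CPM in control (median 402) and 335 to 384 CPM in mimic (median 357), so the groups did not overlap. Adar alone made up 129 to 140.4 CPM of it in control. Among the 20 genes with a mean of at least 100 counts, 10 were lower and 2 higher, with a median log2 fold change of -0.27. Among the 22 with fewer counts, 15 were lower and none was higher by edgeR, DESeq2 or limma-voom, with a median of -0.76. At an unadjusted p under 0.05 the 42 genes held 32 lower values and 3 higher ones, those of Rsad2, Ly6e and Mx1, and Mx1 is among the 22. Shares over all genes at that limit, or split at 100 counts, are not given here, so these counts have no background beside them. In bulk samples, fewer cells of a type and less RNA per cell cannot be told apart.

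Rsad2 encodes viperin, a radical SAM enzyme that makes a chain-terminating nucleotide from CTP, and its transcript was 1 of the 2 that rose. Its level (ENSMUSG00000020641, chr12:26442746-26456452, mm10) was 3.13, 3.61 and 4.08 CPM as the lowest, median and highest control library and 5.89, 6.49 and 7.91 CPM in mimic. Every mimic library lay above every control library. The mean rose from 3.62 ± 0.407 to 6.72 ± 0.873 CPM (SD, n = 6 per group), or by a log2 fold change of 0.88 ± 0.096 (SE, adjusted p = 3.11e-06 by edgeR). Its direct neighbour on chromosome 12, Cmpk2, a mitochondrial nucleotide kinase that is usually induced together with it, went the other way. Cmpk2 (ENSMUSG00000020638, chr12:26469204-26479837) stood at 24.6, 25.6 and 28.3 CPM in control and 21.3, 23.9 and 24.9 CPM in mimic, with mimic 3 and mimic 4 above the lowest control library. Its log2 fold change was -0.15 ± 0.049 (SE, adjusted p = 0.0322 by edgeR). The call for Cmpk2 was close to the threshold. It was lost without control 2, control 5, mimic 1, mimic 5 or mimic 6, with adjusted p-values of 0.0789, 0.0660, 0.0866, 0.0566 and 0.0828, and its log2 fold change stayed between -0.17 and -0.13.

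The ratio of the pair was compared directly, so that library size cancels. The log2 ratio of Rsad2 to Cmpk2 ran from -3.06 to -2.62 in control and from -2.04 to -1.46 in mimic. It differed by 1.03 between the group means, with no overlap. The direction of Rsad2 was known when the pair was chosen, so this difference is a description and no p-value is given for it. The other pairs were also chosen with earlier results of these data known, so their p-values below are descriptive too. Their adjustment over 5 pairs includes Rsad2 with Cmpk2, which can lower their adjusted p-values. Rsad2 was the scarcer transcript of the pair in both groups. Per kilobase of exon it stood at 0.834 CPM in control and 1.55 in mimic, against 6.27 and 5.63 for Cmpk2.

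The repeat bound by ISGF3 was searched in RefSeq promoter windows of 300 bases, from 250 bases before to 50 after the start of the gene, as GAAANNGAAA on either strand (TTTCNNTTTC on the other strand). Of the 47 genes 35 matched an entry, and 15 of these held the motif (42.9%), against 3.66% of the 12830 tested genes with a promoter and 3.44% of all 32851 windows. Of 13 tested genes with the motif, 10 were called lower, 1 higher and 2 in neither direction, with a median log2 fold change of -0.71. Of 18 tested genes without it, 9 were called lower and none higher, with a median of -0.30. Ly6e, which was called higher, matched no entry and was not searched. Over all 469 tested genes with the motif 14.9% were called lower and 12.8% higher, against 11.6% and 13.1% of the 12361 without it. Rsad2 was the higher gene with the motif, so the same letters were found in the promoter of the gene that rose and of genes that fell, while the window of its neighbour Cmpk2 held no match. Eif2ak2 and Ifitm2 held it and were not called.

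The windows of Rsad2, Ifit1 and Isg15 are shown to set the gene that rose beside a pair that fell strongly (GRCm38.p6, on the strand of the gene, motif in capitals).
Rsad2, chr12:26456403-26456702, minus strand: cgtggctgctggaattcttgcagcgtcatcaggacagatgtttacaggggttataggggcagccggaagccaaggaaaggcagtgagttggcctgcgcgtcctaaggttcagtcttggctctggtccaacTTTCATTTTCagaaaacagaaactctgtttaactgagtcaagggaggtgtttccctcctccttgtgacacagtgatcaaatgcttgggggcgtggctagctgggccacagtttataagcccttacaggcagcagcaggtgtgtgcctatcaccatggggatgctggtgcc
Ifit1, chr19:34640639-34640938, plus strand: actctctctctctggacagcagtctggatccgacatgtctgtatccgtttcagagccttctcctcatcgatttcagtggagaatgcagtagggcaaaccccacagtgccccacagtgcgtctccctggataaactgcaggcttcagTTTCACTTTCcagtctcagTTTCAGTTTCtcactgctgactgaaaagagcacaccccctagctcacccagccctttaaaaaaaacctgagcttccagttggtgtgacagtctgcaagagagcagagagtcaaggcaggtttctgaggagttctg
Isg15, chr4:156200769-156201068, minus strand: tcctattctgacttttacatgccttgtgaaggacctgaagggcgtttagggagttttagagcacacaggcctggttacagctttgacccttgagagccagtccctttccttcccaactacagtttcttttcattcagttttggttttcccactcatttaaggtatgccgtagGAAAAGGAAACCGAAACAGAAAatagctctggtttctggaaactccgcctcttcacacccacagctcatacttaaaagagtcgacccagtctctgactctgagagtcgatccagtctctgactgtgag
Rsad2 held 1 match, Ifit1 held 2 and Isg15 held 3 that overlap each other. In Rsad2 and Ifit1 the matches read TTTCNNTTTC, and in Isg15 they read GAAANNGAAA. A window without a match says only that these letters are not in the window.

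Sites for the seed of the mimic were searched in the longest annotated 3′ untranslated region (UTR) of each gene, as TGCACTG, the match to bases 2 to 8, or GCACTGA, the match to bases 2 to 7 followed by an A, which overlap in TGCACTGA. Of the 42 tested genes 8 held at least 1 site (19.0%), against 21.9% of all 15082 tested genes with a UTR. Of the 8, 7 were called lower, namely Ddx58, Trim30a, Adar, Cmpk2, Slfn2, Xaf1 and Tor3a, and Helz2 was not called. Over all 3306 tested genes with a site 19.2% were called lower, against 10.8% of the 11776 without one. The genes without a site included 18 called lower, and the median log2 fold change was -0.60 with and -0.52 without a site. Neither Rsad2 nor Ly6e held a site. Sites of the overlapping 8-base form were found in Ddx58 and Xaf1, and these are shown with the match in capitals.
Ddx58, chr4:40205322-40205329, minus strand: cttctgtccctTGCACTGAttcctttccgg
Xaf1, chr11:72312985-72312992, plus strand: ctttcgcttctTGCACTGAactcgagcacc
Ddx58 also held a 7-base site, and Adar held 2 such sites. A match to the seed of the negative control was found in none of the 42 tested genes, against 4.42% of all tested genes. A match of letters is a description and not a site of action.

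**Figure D2:**
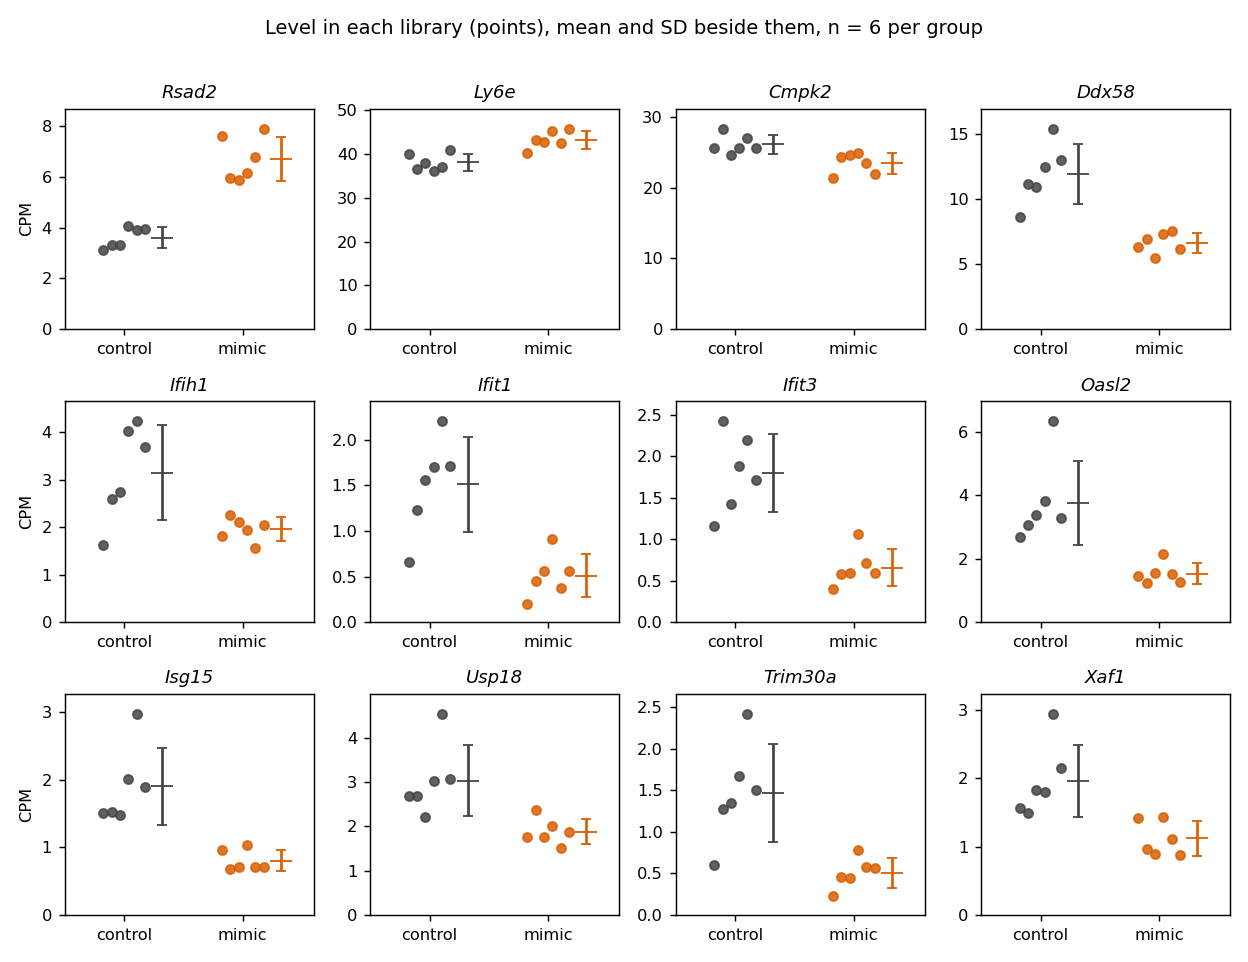
CPM on the y axis, from 0, in each of the 6 control (grey) and 6 mimic (orange) libraries for 12 of the genes, with the mean and SD beside the points. The mimic libraries of Rsad2 lie at 5.89 to 7.91 CPM, above the 3.13 to 4.08 CPM of control, and in Ddx58, Ifit3, Oasl2, Isg15 and Xaf1 they lie below all control libraries.

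The sensors of RNA in the cytosol were lower in mimic for 2 of the 3 tested. Ddx58 encodes RIG-I, which recognises short double-stranded RNA and RNA with a triphosphate end. It (ENSMUSG00000040296, chr4:40203773-40239828) had 8.64, 11.8 and 15.4 CPM in control and 5.47, 6.64 and 7.52 CPM in mimic. Both groups were apart, with a log2 fold change of -0.86 ± 0.11 (SE, adjusted p = 3.37e-05 by edgeR). Ifih1, which encodes MDA5, the sensor of long double-stranded RNA, had 1.62, 3.22 and 4.22 CPM in control and 1.55, 1.99 and 2.26 CPM in mimic. Control 1, at 1.62 CPM, lay within the mimic range, and the log2 fold change was -0.71 ± 0.18 (SE, adjusted p = 0.00773 by edgeR). Dhx58, the regulatory member LGP2 without a signalling domain, had a log2 fold change of -0.20 ± 0.19 (SE, adjusted p = 0.506 by edgeR) and did not pass. Zbp1, a sensor of Z-form nucleic acid, stayed under the count minimum. It reached at most 0.458 CPM in a control library and 0.105 CPM in a mimic library. In a fit with no count filter it was called lower (adjusted p = 0.00343 by edgeR), and the other 4 genes under the minimum were not.

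Of the 2 ubiquitin ligases of this signalling step, 1 was lower. Trim25, which modifies RIG-I, had 1.74, 3.18 and 4.44 CPM in control and 3.24, 3.59 and 5.59 CPM in mimic. The groups overlapped widely and its log2 fold change was 0.28 ± 0.17 (SE, adjusted p = 0.282 by edgeR), which ran from 0.15 without mimic 2 to 0.41 without control 5. Trim30a, an interferon-induced member of the TRIM family, had 0.606, 1.43 and 2.42 CPM in control and 0.232, 0.507 and 0.782 CPM in mimic. Only control 1, at 0.606 CPM, lay within the mimic range, and the log2 fold change was -1.56 ± 0.28 (SE, adjusted p = 0.000501 by edgeR). Trim30a lies in a cluster of near copies, so its reads may have been lost or shared out.

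The IFIT family, tetratricopeptide-repeat proteins that bind viral RNA and block its translation, was lower in all 4 of its members. Ifit1, which binds RNA with an unmethylated cap and held 2 motif matches in the window shown above, had 0.656, 1.63 and 2.20 CPM in control and 0.199, 0.507 and 0.907 CPM in mimic. Control 1, the lowest, overlapped the mimic range. The log2 fold change was -1.59 ± 0.28 (SE, adjusted p = 0.000523 by edgeR). Ifit3 had 1.16, 1.80 and 2.42 CPM in control and 0.397, 0.596 and 1.06 CPM in mimic, with no overlap and a log2 fold change of -1.45 ± 0.21 (SE, adjusted p = 7.22e-05 by edgeR). Its near copy Ifit3b showed the lowest log2 fold change of the list, -1.90 ± 0.26 (SE, adjusted p = 3.67e-05 by edgeR), at a mean of 19.5 counts. Ifit2, the most abundant of the family, had 7.32, 9.01 and 10.6 CPM in control and 5.83, 6.18 and 7.44 CPM in mimic, and only the highest mimic library reached above the lowest control library. Its log2 fold change was -0.50 ± 0.091 (SE, adjusted p = 0.000638 by edgeR). The log2 ratio of Ifit3 to Ifit3b differed by 0.22 between the groups, less than the libraries of a group varied (exact permutation p = 0.483, two-sided, and 0.483 after adjustment over 5 pairs; control 0.376 to 1.77, mimic 0.483 to 1.78), and with a pseudocount of 1 CPM in place of 0.1 it was -0.11. Reads that match both copies can have been lost or split.

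The OAS family consists of enzymes that make oligoadenylates, the activators of RNase L, and of relatives without that activity. Of its 5 members only Oas2 and Oasl2 were tested. Oasl2, which keeps a ubiquitin-like tail, had 2.68, 3.33 and 6.33 CPM in control and 1.23, 1.49 and 2.16 CPM in mimic. The groups did not overlap, and the log2 fold change was -1.31 ± 0.20 (SE, adjusted p = 0.000154 by edgeR). Oas2 had a log2 fold change of -0.70 ± 0.31 (SE, adjusted p = 0.121 by edgeR) at a mean of 8.25 counts, and -0.43 without control 5. The other 3 genes reached at most 0.259 CPM in a library.

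Of the 4 enzymes that act on RNA, 1 was called, as lower. Adar, the adenosine deaminase that edits double-stranded RNA and keeps MDA5 from sensing the RNA of the cell itself, was the most abundant gene of the list in counts. It had 129, 134 and 140.4 CPM in control and 122, 125 and 128 CPM in mimic. The groups did not overlap, although the log2 fold change was only -0.099 ± 0.032 (SE, adjusted p = 0.0362 by edgeR). The call was lost without control 2, control 3, mimic 1, mimic 2, mimic 3, mimic 5 or mimic 6 (adjusted p from 0.0501 to 0.0878) and with no count filter (0.133), with a log2 fold change of -0.11 to -0.086 over the 12 fits without 1 library. Of its 8118 bases of exon, 1365 overlap exons of Chrnb2 on the other strand, and the library kit does not mark strand. Eif2ak2, the kinase PKR that halts translation on double-stranded RNA, had a log2 fold change of 0.096 ± 0.075 (SE, adjusted p = 0.415 by edgeR) and levels of 17.6 to 25.1 CPM in control and 19.96 to 24.4 CPM in mimic. Isg20, an exonuclease, and Helz2, a helicase, had log2 fold changes of -0.29 and -0.26 with edgeR adjusted p-values of 0.554 and 0.0537. Helz2 passed as lower by limma-voom (adjusted p = 0.0469), under a stricter count filter (10 counts in 6 libraries and a mean of 20; 0.0444 by edgeR) and without control 1 (0.0300) or mimic 5 (0.0116).

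The Mx GTPases, which assemble around viral nucleocapsids, were called in neither direction. Mx1, the nuclear protein, had 0.892, 1.02 and 1.36 CPM in control and 0.944, 1.36 and 1.75 CPM in mimic. Its log2 fold change was 0.38 ± 0.16 (SE, adjusted p = 0.0975 by edgeR), and it passed as higher without control 1 (0.45, adjusted p = 0.0452) or mimic 5 (0.47, adjusted p = 0.0317). Mx2, the cytosolic protein, had a log2 fold change of -0.24 ± 0.17 (SE, adjusted p = 0.362 by edgeR). The log2 ratio of Mx1 to Mx2 was higher in mimic by 0.58 (control -0.56 to 0.21, mimic -0.090 to 1.04; exact permutation p = 0.0260, two-sided, and 0.0325 after adjustment over 5 pairs), a call that was lost without any 1 of control 2, 3, 4 and 5 and mimic 1, 4 and 6, where the adjusted p ran from 0.0514 to 0.0676. With a pseudocount of 1 CPM in place of 0.1, for these genes near 1 CPM, the difference was 0.33.

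The 5 factors that act at membranes held genes of both directions. Ly6e, a lipid-anchored surface protein that restricts the entry of coronaviruses, was the other member to rise. It (ENSMUSG00000022587, chr15:74955051-74959905) had 36.1, 37.6 and 40.9 CPM in control and 40.2, 43.03 and 45.8 CPM in mimic. The lowest mimic library lay below the highest control library. The mean rose from 38.1 ± 1.95 to 43.3 ± 2.04 CPM (SD, n = 6 per group), or by a log2 fold change of 0.18 ± 0.043 (SE, adjusted p = 0.00483 by edgeR). Ifitm3, which stops viruses from fusing in endosomes, had the highest level of the list per kilobase of exon, 25.2 CPM in control and 15.7 in mimic. It was lower, with a log2 fold change of -0.68 ± 0.10 (SE, adjusted p = 0.000148 by edgeR), with 15.5 to 19.8 CPM in control and 7.45 to 12.6 CPM in mimic. Bst2, or tetherin, which holds budding virus on the cell, was lower as well, with a log2 fold change of -0.67 ± 0.17 (SE, adjusted p = 0.0084 by edgeR). Ifitm1 and Ifitm2 had log2 fold changes of -1.07 and -0.23 and did not pass (edgeR adjusted p = 0.0939 and 0.234), and Ifitm1 passed without mimic 4 (adjusted p = 0.0297). The log2 ratio of Ifitm2 to Ifitm3 was higher in mimic by 0.48 (control -2.25 to -1.26, mimic -1.77 to -1.08; exact permutation p = 0.0260, two-sided, and 0.0325 after adjustment over 5 pairs). This call was lost in 9 of the 12 comparisons without 1 library and kept without control 1, mimic 3 or mimic 4; where it was lost the adjusted p ran from 0.0514 to 0.0703. Of the 655 bases of exon of Ifitm2, 268 overlap the gene model Gm45717 on the same strand.

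**Figure D3:**
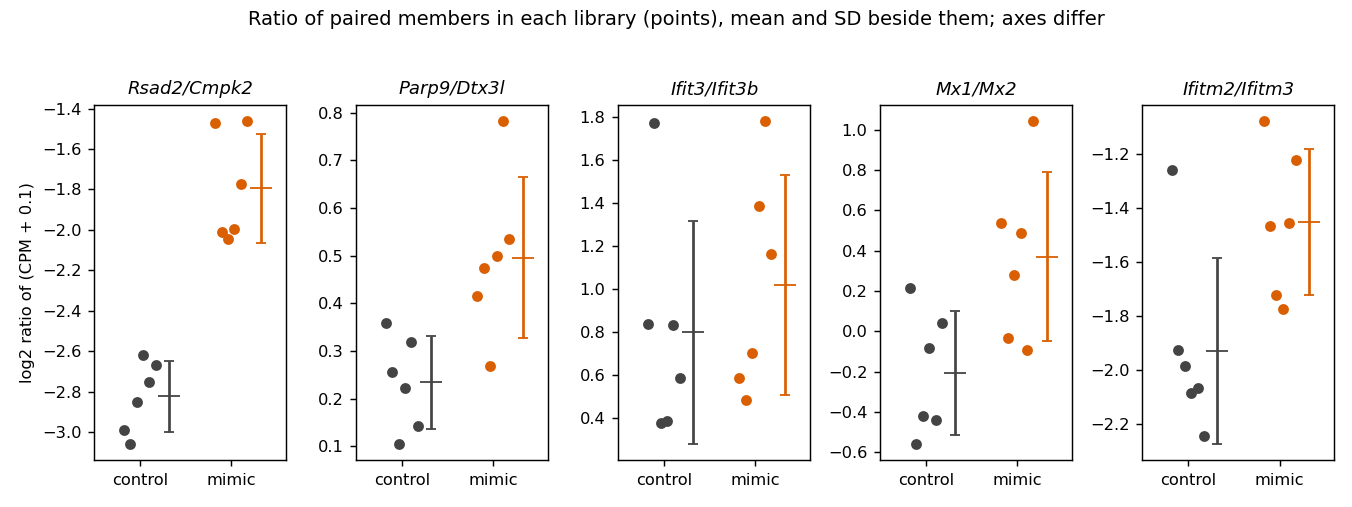
Log2 ratio of (CPM + 0.1) of 5 pairs of neighbouring or similar genes on the y axis, per library, for control (grey) and mimic (orange), with the mean and SD beside the points; each pair has its own axis. The ratio of Rsad2 to Cmpk2 has no overlap between -3.06 to -2.62 in control and -2.04 to -1.46 in mimic, and the other 4 pairs overlap.

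Isg15, a ubiquitin-like protein that is joined to other proteins and also secreted, and the enzymes around it were lower for 2 of 3 genes. Isg15 (ENSMUSG00000035692, chr4:156199424-156200818) had 1.48, 1.71 and 2.97 CPM in control and 0.679, 0.711 and 1.03 CPM in mimic. The groups did not overlap and the log2 fold change was -1.26 ± 0.19 (SE, adjusted p = 0.000104 by edgeR). Usp18, which removes Isg15 and also damps signalling at the interferon receptor, had 2.21, 2.85 and 4.53 CPM in control and 1.52, 1.81 and 2.36 CPM in mimic. Its highest mimic library passed the lowest control library, and the log2 fold change was -0.70 ± 0.16 (SE, adjusted p = 0.00343 by edgeR). Herc6, the mouse ligase that attaches Isg15, had 4.12, 4.83 and 6.30 CPM in control and 2.99, 3.94 and 5.00 CPM in mimic, and its log2 fold change of -0.28 ± 0.13 (SE, adjusted p = 0.131 by edgeR) did not pass. Of its 9292 bases of exon, 1269 are shared with the gene model Gm45193 on the same strand.

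Among the PARP enzymes, which attach ADP-ribose to proteins, Parp14 was lower, with a log2 fold change of -0.69 ± 0.16 (SE, adjusted p = 0.00535 by edgeR). Dtx3l, a ubiquitin ligase that forms a complex with Parp9 and shares its promoter region, was lower, with a log2 fold change of -0.55 ± 0.096 (SE, adjusted p = 0.000398 by edgeR), with no overlap. Parp9 itself had a log2 fold change of -0.28 ± 0.097 (SE, adjusted p = 0.0483 by edgeR). Its call was lost without any 1 of control 4, 5 and 6 and mimic 1, 2, 3, 4 and 6 (adjusted p from 0.0504 to 0.116), where its log2 fold change stayed between -0.30 and -0.19. With all libraries kept, the call was also lost by limma-voom (adjusted p = 0.0515) and with DESeq2 size factors in edgeR (0.0503). Parp12, the most abundant of the 4, had 14.4, 16.5 and 18.97 CPM in control and 13.2, 14.9 and 16.4 CPM in mimic, with a log2 fold change of -0.18 ± 0.076 (SE, adjusted p = 0.103 by edgeR), and it passed without control 1 (adjusted p = 0.0230). The log2 ratio of Parp9 to Dtx3l was higher in mimic by 0.26 (control 0.105 to 0.359, mimic 0.269 to 0.782; exact permutation p = 0.00649, two-sided, and 0.0162 after adjustment over 5 pairs). That adjustment includes the pair of Rsad2 and Cmpk2, which was chosen with its direction known. The exons of Parp9 and Dtx3l overlap on opposite strands over 458 bases, and reads from there cannot be told apart.

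Samd9l, a restrictor of poxviruses and of cell growth, had 2.47, 5.38 and 7.46 CPM in control and 2.53, 3.77 and 4.35 CPM in mimic. Its log2 fold change was -0.55 ± 0.20 (SE, adjusted p = 0.0584 by edgeR). In this gene control 1 lay below all mimic libraries, and without it the adjusted p was 0.00321 and the log2 fold change -0.68. With all libraries kept, Samd9l was called lower by DESeq2 (adjusted p = 0.0347) and under the stricter count filter (0.0467 by edgeR). Slfn2, a Schlafen protein, was lower, with a log2 fold change of -0.85 ± 0.26 (SE, adjusted p = 0.0266 by edgeR) at a mean of 14.7 counts, a call that was lost without any 1 of control 4, 5 and 6 and mimic 1, 5 and 6 (adjusted p from 0.0519 to 0.0693). The galectin Lgals9 was lower, with a log2 fold change of -0.63 ± 0.16 (SE, adjusted p = 0.00832 by edgeR). Lgals3bp, a secreted galectin-binding glycoprotein, had 14.99, 16.3 and 19.98 CPM in control and 12.2, 13.3 and 17.95 CPM in mimic and a log2 fold change of -0.24 ± 0.092 (SE, adjusted p = 0.0779 by edgeR). Without mimic 4 it passed (adjusted p = 0.00860).

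Of the 7 other interferon-induced genes tested, 6 were lower. Rtp4, a chaperone of membrane receptors that is strongly induced by interferon, had 0.680, 1.24 and 2.39 CPM in control and 0.562, 0.759 and 1.03 CPM in mimic. The groups overlapped and the log2 fold change was -0.81 ± 0.24 (SE, adjusted p = 0.0188 by edgeR). Xaf1, a partner of the apoptosis inhibitor XIAP, had 1.49, 1.81 and 2.94 CPM in control and 0.879, 1.04 and 1.44 CPM in mimic, with no overlap and a log2 fold change of -0.83 ± 0.18 (SE, adjusted p = 0.00281 by edgeR). Tor3a, a torsin ATPase, had 18.6, 20.3 and 20.9 CPM in control and 13.5, 15.5 and 17.02 CPM in mimic. The groups did not overlap, and the log2 fold change was -0.37 ± 0.056 (SE, adjusted p = 0.000109 by edgeR). Ifi44, Ifi35 and Ifi27 had log2 fold changes of -1.58, -0.31 and -0.30, with edgeR adjusted p-values of 0.00736, 0.00785 and 0.0134, and Ifi44 rested on a mean of 11.9 counts. Epsti1 had a log2 fold change of 0.021 with a SE of 0.35 (edgeR adjusted p = 0.978), at a mean of 7.83 counts.

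Libraries of 1 group did not stand alike. Control 5 was the highest control library in 27 of the 42 genes and in 19 of the 25 called lower, and control 1 was the lowest in 21 and 14. In mimic, mimic 4 was the highest library in 18 of the 42 genes and in 15 of the 25. Over the 42 genes, the median difference from the control mean on the log2 scale ran from -0.20 in control 1 to 0.31 in control 5, and from -0.56 in mimic 6 to -0.25 in mimic 4. The microglia and macrophage markers summed to 28.5 CPM in control 5, 24.5 in control 1 and 26.9 in mimic 4, and their highest sum, 43.3 CPM, was in mimic 2. Oligodendrocyte lineage markers summed to 410 CPM in control 5, 681 in control 1, 793 in mimic 4 and 963 in mimic 6. Endothelial markers summed to 62.8, 47.3, 47.5 and 29.9 CPM in the same libraries. Mimic 5, with a median difference of -0.48, had 768 and 51.5 CPM for these lists. A relation to the antiviral genes was not tested. In the 12 fits without 1 library, between 21 genes (without mimic 1 or mimic 6) and 28 genes (without control 1) were called lower, and 21 of the 25 were called lower in all 12. Rsad2 and Ly6e were called higher in all 12. Among genes not called, leaving out 1 library also moved the log2 fold change by over 1.5 times in Dhx58 (to -0.11 without control 1), Eif2ak2 (0.055 without control 1 and 0.16 without control 5), Isg20 (-0.15 without control 3 and -0.48 without control 5), Mx2 (-0.13 without mimic 6), Ifitm2 (-0.11 without control 1) and Epsti1 (-0.23 without mimic 2 and 0.22 without control 2).

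**Figure D4:**
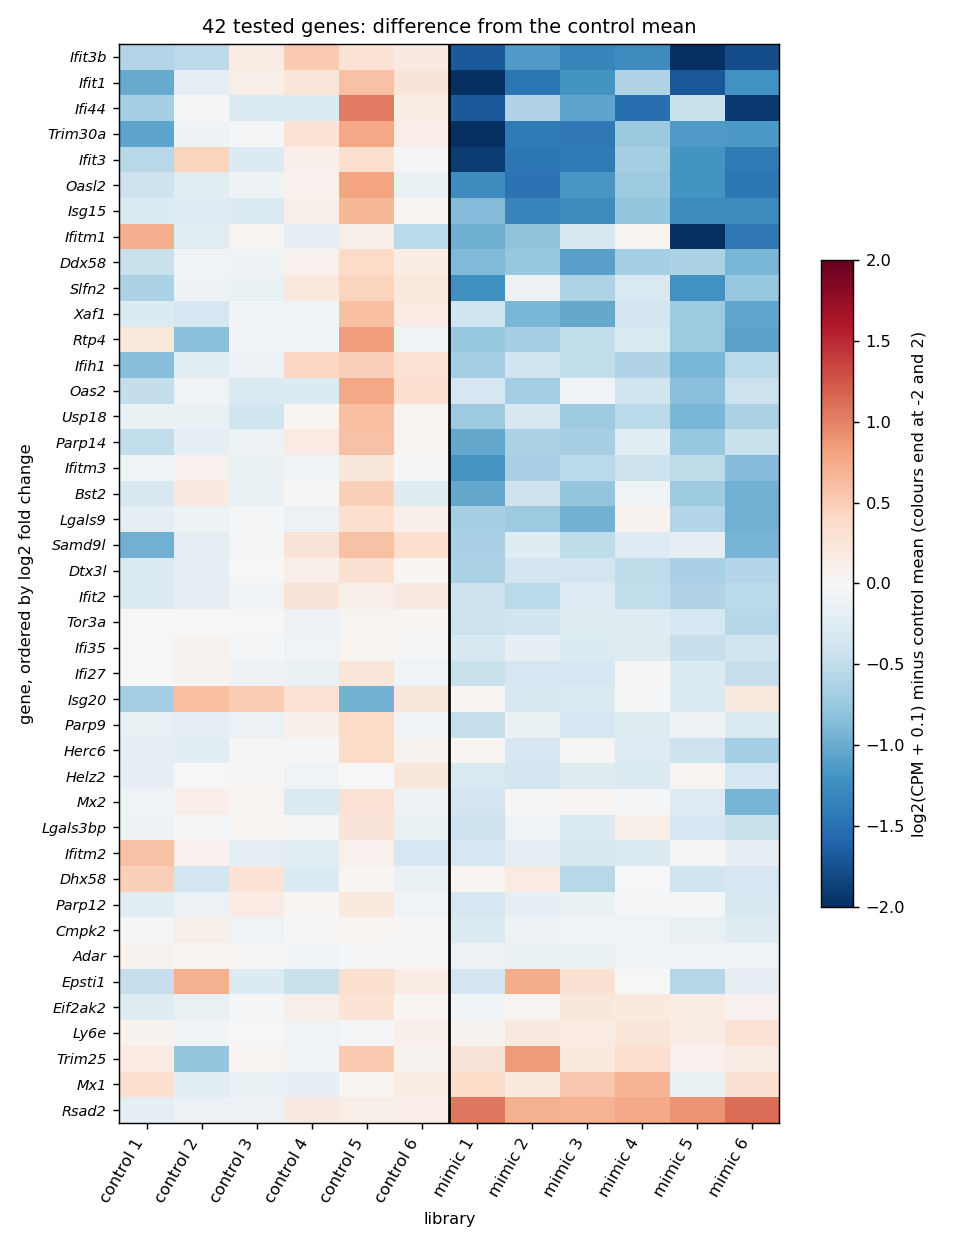
Colour gives log2(CPM + 0.1) of each of the 42 tested genes (rows, ordered by log2 fold change) in each of the 12 libraries (columns) minus the control mean, blue for lower and red for higher. Most of the upper rows are blue in all 6 mimic libraries, control 5 is the reddest control column, and Rsad2 in the last row is red in all 6 mimic libraries.

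The genes upstream of these effectors were read from the same fit. Few reads were counted for interferon transcripts, since the 21 ligand genes together had 23 counts over all 12 libraries, and 17 of them had none. A count of 0 allows up to 3 counts a library, or 0.0808 to 0.151 CPM at these depths, for counting error only. The Ifna genes are near copies of each other, so reads that match several of them may have been lost, and their level cannot be read from these counts. Of the 6 receptor genes 5 were tested and none was called by edgeR, with 0 at an unadjusted p under 0.05, by DESeq2 and by limma-voom as well. Ifnar1, the first chain of the type I receptor, had a log2 fold change of -0.0067 ± 0.03 (SE, adjusted p = 0.914 by edgeR). Stat2, Irf9 and Jak1, which carry the signal from the receptor, were lower without overlap between the groups, with log2 fold changes of -0.23 ± 0.036 (SE, adjusted p = 0.000147 by edgeR) for Stat2, -0.21 ± 0.057 (SE, adjusted p = 0.0121 by edgeR) for Irf9 and -0.11 ± 0.031 (SE, adjusted p = 0.0166 by edgeR) for Jak1. These log2 fold changes were smaller in size than those of Ifit1, Isg15 and Oasl2, a difference that was not tested. The kinases Tyk2 and Jak2 were not called, with log2 fold changes of 0.045 and -0.0067 (edgeR adjusted p = 0.578 and 0.933).

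Of 6 other interferon regulatory factors tested, Irf1, an activator, was lower, with a log2 fold change of -0.52 ± 0.074 (SE, adjusted p = 5.07e-05 by edgeR), and Irf2, which competes with it for the same sites, was higher, with a log2 fold change of 0.17 ± 0.049 (SE, adjusted p = 0.0197 by edgeR). Irf7, the amplifier of the type I response, had a log2 fold change of -0.30 (edgeR adjusted p = 0.339) at a mean of 19.1 counts. The 15 tested adaptors and kinases of nucleic acid sensing held 2 higher genes and, by edgeR, DESeq2 or limma-voom, no lower one (3 and 0 at an unadjusted p under 0.05), while 11.5% of all genes tested were called higher. These were Tmem173, or STING, with 0.50 ± 0.13 (SE, adjusted p = 0.00772 by edgeR) and Irak1 with 0.30 ± 0.042 (SE, adjusted p = 4.10e-05 by edgeR). Mavs, the adaptor of RIG-I and MDA5, had a log2 fold change of -0.0068 (edgeR adjusted p = 0.948) and Tlr3, the endosomal sensor of double-stranded RNA, 0.044 (edgeR adjusted p = 0.77). Of 11 tested negative regulators, Socs3 with -0.47 ± 0.087 (SE, adjusted p = 0.000621 by edgeR) and Samhd1 with -0.19 ± 0.053 (SE, adjusted p = 0.0131 by edgeR) were lower and none was higher by any of the 3 tools (1 at an unadjusted p under 0.05), while 10.7% of all genes tested were called lower. Trex1 was listed at 0 in all libraries. Whether its reads were lost to overlapping gene models was not examined.

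Marker lists of the cell types in these cultures were read beside these genes, against 10.7% lower and 11.5% higher calls over all genes tested. Of 9 astrocyte markers 6 were higher and 1, Gfap, was lower, with a log2 fold change of -0.90 ± 0.078 (SE, adjusted p = 5.52e-07 by edgeR). Of 8 oligodendrocyte lineage markers 5 were higher and 1 lower, and their sum was 393 to 681 CPM in control and 768 to 963 CPM in mimic. Olig1 made up most of that sum, at a mean of 369.8 CPM in control and 720.3 CPM in mimic. The neuron list had 2 lower and 1 higher of 10. The microglia and macrophage list had 2 lower genes of 12, C1qa with -0.79 ± 0.14 (SE, adjusted p = 0.000488 by edgeR) and C1qb with -0.50 ± 0.16 (SE, adjusted p = 0.0334 by edgeR). The other 10 were not called, with log2 fold changes from -0.47 for Cx3cr1 to 1.74 for Trem2, 3 of them negative. The positive values of Trem2 and Csf1r went with wide mimic ranges, of 0.135 to 3.98 CPM (median 0.197) and 2.66 to 9.34 CPM (median 3.68). The endothelial list summed to 47.3 to 69.1 CPM in control and 28.8 to 51.5 CPM in mimic, with Kdr and Flt1 called lower among 6 tested. Kdr alone made up nearly all of that sum, at a mean of 58.6 CPM in control and 37.6 CPM in mimic, every other gene of the list had a mean under 1 CPM, and its defining marker Cldn5 had 0 counts in every control library and at most 0.0337 CPM in mimic. The mural and meningeal list summed to 162 to 209 CPM in control and 85.8 to 215 CPM in mimic, with 1 gene lower and 1 higher of 8. The lower gene was Acta2, with -2.86 ± 0.42 (SE, adjusted p = 0.00047 by edgeR), the lowest log2 fold change of all genes tested. Its mean was 27.0 CPM in control and 3.75 CPM in mimic. The higher gene was Rgs5, with 1.16 ± 0.14 (SE, adjusted p = 1.27e-05 by edgeR). The part of these cells in the changes of the antiviral genes was not tested.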

How the data were processed

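RNA-seq libraries of 6 control and 6 mimic cultures were analysed, with groups and replicate numbers from the sample labels. The authors made poly(A) libraries with a kit that does not mark strand, sequenced 50 bp single reads, checked them with FastQC 0.11.5, aligned them to mm10 with STAR 2.5.2b and counted them per gene with featureCounts (Subread 1.5.1), per the labels and processing notes. The strand setting is not given in the sources used here. The deposited values used are these raw counts for 48709 Ensembl genes. A deposited table of normalized values was not used. Symbols and UTRs came from GENCODE M21 (GRCm38, the build of mm10), which named 48349 genes. Promoter and miRNA sequences came from RefSeq GRCm38.p6.

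The test was edgeR 4.0.16 (glmQLFTest after TMM and robust glmQLFit, no covariate; R 4.3.3), run where 6 or more of the 12 samples had 5 counts or more, with Benjamini-Hochberg adjustment, called at an adjusted p under 0.05. DESeq2, the tool of the study, was an alternative (1.42.0) beside limma-voom (3.58.1), other size factors, other filters, a replicate block and leaving out each sample. The SE is the log2 fold change divided by the square root of F. Ratios of 5 pairs used log2(CPM + 0.1) and exact permutation tests over 924 relabellings. Replicates differed by more than sampling noise (chi-square per degree of freedom from 1.73 to 39.3 over 30 pairs), and each counted as 1 sample. This spread does not show whether the replicates came from separate culture preparations.

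The genes, lists, pairs and tests were chosen with earlier results of these data known, and so was the direction of Rsad2. Values as lowest, median and highest are given for genes called higher, the 10 called lower with the largest log2 fold change at a mean of at least 20 counts, and the most abundant gene of each role group. Some results of the signalling pathway are not reported here.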

Additional observations from a re-analysis of the deposited data

Results flagged for a closer look

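In each group of 6 libraries, the gap between the highest (or lowest) library and its neighbour, as a share of the group's range, was compared with the 95% critical value of Dixon's test for 6 values. Of 94 groups, over the 42 tested genes and 5 ratios, 12 gaps were above it, against 4.7 by chance, at about 1 in 20 groups. Control 5 was the high library in 4 of them, at 6.33 CPM in Oasl2 (the next control library had 3.84), 2.97 CPM in Isg15 (next 2.01), 4.53 CPM in Usp18 (next 3.08) and 1.22 CPM in Ifi44 (next 0.608). Mimic 4 was the high library in 3, at 2.16 CPM in Oasl2 (next 1.55), 2.97 CPM in Lgals9 (next 1.85) and 17.7 CPM in Ifi27 (next 14.5). Oasl2, Isg15, Usp18, Ifi44, Lgals9 and Ifi27 were called lower without control 5 and without mimic 4 as well. The others were 5.59 CPM for Trim25 in mimic 2, 3.88 CPM for Helz2 in mimic 5, 18.6 CPM for Tor3a in control 4, the low library there, a log2 ratio of Ifit3 to Ifit3b of 1.77 in control 2 and of Ifitm2 to Ifitm3 of -1.26 in control 1.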

How the results depend on the processing

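In the 6 alternatives that kept all libraries, 24 to 26 of the antiviral genes were called lower and 2 higher, against 25 and 2, and over all genes 3659 to 4464 were called, against 4182. Without 1 library the counts were 21 (without mimic 1 or mimic 6) to 28 (without control 1) lower, 2 to 3 higher and 3494 to 5150 over all genes. Of the 25 lower genes, 19 were called in all 18 alternatives. Ifit3b, Ifi44 and Slfn2 were not tested under the stricter count filter, and Ifit3b and Ifi44 were called in the other 17. Beside the fits without 1 library, Adar lost its call with no count filter and with the replicate block (adjusted p = 0.110), Cmpk2 with no count filter, and Parp9 with other size factors and with limma-voom. Gained as lower were Samd9l (DESeq2, stricter filter), Helz2 (limma-voom, stricter filter), Zbp1 (no count filter) and, with the replicate block, Samd9l (adjusted p = 0.0428) and Parp12 (0.0386). Epsti1, at 0.021, changed sign without control 1 (-0.057), control 3 (-0.077), control 4 (-0.10), mimic 2 (-0.23) or mimic 3 (-0.052), never past the threshold. With a pseudocount of 1 CPM the log2 ratio of Ifit3 to Ifit3b was -0.11 instead of 0.22, and neither passed, while that of Mx1 to Mx2 was 0.33 instead of 0.58. Without 1 library the ratio of Mx1 to Mx2 ran from 0.44 to 0.67 and that of Ifitm2 to Ifitm3 from 0.40 to 0.61.

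Replicate numbers did not pair the samples, since 1 of 6 same-number correlations was over 0.1 (-0.080 to 0.18) and 1 mimic library correlated best with its own number. With the replicate block 26 antiviral genes were lower, 2 higher and 3659 genes were called over all.
Genes of few counts limit the precision: a library of 20018234 counts resolves 0.151 CPM at 3 counts.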
